A study of Rattus norvegicus with 8 samples.

Results

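Il6, Il1b, Ccl2, Icam1, Vcam1 and Selp, 6 genes of cytokine signalling and leukocyte adhesion, were followed in RNA of the sinoatrial node, where the heartbeat starts. The members were taken as a fixed list of Ensembl rat identifiers, which was chosen with earlier results of these data known. All 6 were found among the 32285 identifiers of the deposited table: ENSRNOG00000010278 (Il6), ENSRNOG00000004649 (Il1b), ENSRNOG00000007159 (Ccl2), ENSRNOG00000020679 (Icam1), ENSRNOG00000014333 (Vcam1) and ENSRNOG00000002794 (Selp). RNA came from Dahl salt-sensitive rats (SS/JrHsdMcwiCrl), an inbred strain that becomes hypertensive when it eats much salt. HFpEF stands for heart failure with preserved ejection fraction. That group (4 libraries) received a diet of 8% NaCl and the Control group (4 libraries) one of 0.4% NaCl, each over 11 weeks. Strain, tissue and time on diet were shared by both groups, and the labels give neither age nor sex. Every HFpEF library was on high salt and no other was, so salt intake, blood pressure and heart failure cannot be told apart. Nothing in the labels ties a library to 1 animal, so each p-value measures the spread between libraries, which may be technical.

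Inflamed vessels capture leukocytes in steps. P-selectin and then the immunoglobulin-type adhesion molecules on endothelium hold passing cells, and chemokines such as the product of Ccl2 draw monocytes into the tissue. Interleukin-1β and interleukin-6 are cytokines that act upstream and downstream of these steps, and NF-κB, a transcription factor activated by cytokines, is a known inducer of most of these genes. In the heart, endothelium, fibroblasts, macrophages and cardiomyocytes can each contribute to this RNA. In a bulk sample, fewer or more cells of a type and less or more RNA per cell cannot be told apart.

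Ccl2 and Selp were higher in HFpEF, by 4.18-fold and 3.02-fold, and were the only members to pass the test over all genes. Il1b, Icam1 and Vcam1 had higher mean levels in HFpEF, by 2.63-fold, 1.49-fold and 1.50-fold on the fitted scale, and missed the threshold. Il6 was too low to judge. Libraries held between 31774820 and 38889395 counts in total. The test was edgeR's quasi-likelihood test with Benjamini-Hochberg adjustment over 16313 genes, and a gene with an adjusted p under 0.05 is said to be called. Thus 2 of the 5 members tested were called higher, against 1.54% of all tested genes, and 0 were called lower, against 0.398%. At an unadjusted p under 0.05, 5 of 5 were higher, against 11.2% of tested genes, and 0 were lower, against 8.36%. At an adjusted p under 0.1, 3 were higher, Icam1 being the third, against 4.09% of tested genes, and 0 were lower, against 1.69%. The 5 log2 fold changes ran from 0.58 to 2.06 with a median of 1.39, and the median over all tested genes was -0.0041. Passing the filter on low counts could itself depend on a high level in HFpEF, so the 5 do not stand for all 6 members. Il1b passed through its HFpEF libraries, which had 13 to 41 counts, where its Control libraries had 5 to 13. Its place in the 5 of 5 and as the median of 1.39 is therefore not support for a rise.

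**Figure D1:**
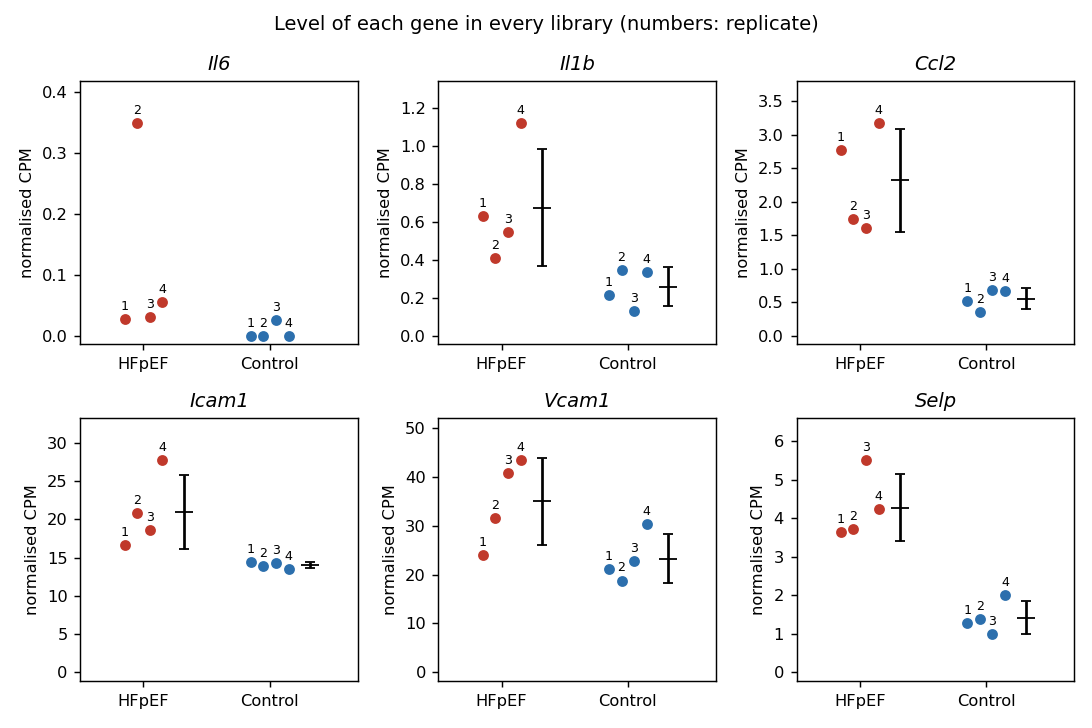
Normalised CPM (counts scaled by library total, linear axis) of each member in the 4 HFpEF libraries (red, left) and 4 Control libraries (blue, right), numbered by replicate, with group mean and SD in black where a mean is given. Ccl2, Selp, Icam1 and Il1b show no overlap between groups, Vcam1 overlaps through HFpEF replicate 1 and Control replicate 4, and the Il6 panel rests on 0 to 11 counts a library.

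Il6 encodes interleukin-6, a cytokine of the acute phase response. Its counts were 1, 11, 1 and 2 in HFpEF replicates 1 to 4, against 0, 0, 1 and 0 in Control replicates 1 to 4. A single library, HFpEF replicate 2, therefore held 11 of the 15 HFpEF counts (exact 95% Poisson interval 5.49 to 19.7), and the other 7 libraries held 0 to 2 counts. The same kind of interval for a count of 0 reaches 3.69 counts. A limit of 3 counts in a library, or 0.0786 to 0.0948 CPM, was used here for what a count of 0 allows. Only HFpEF replicate 2, at 0.348 CPM, lay above that limit. The summed counts, 15 in HFpEF and 1 in Control, stood in a ratio of 16.1 after scaling (95% interval 2.48 to 680, counting error only). Without HFpEF replicate 2 the sums were 4 and 1, with a ratio of 5.59 and an interval of 0.553 to 275. The gene averaged 2 counts per library, under the minimum of 10, and did not pass the filter. With no filter its fitted log2 fold change of 3.50, which depends on the prior count, had an edgeR adjusted p of 0.226. Whether Il6 differs between the groups was not detectable at this depth.

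Il1b encodes interleukin-1β, made mainly by activated monocytes and macrophages. It had 23, 13, 18 and 41 counts in HFpEF replicates 1 to 4, or 0.631, 0.411, 0.545 and 1.12 normalised CPM. Control replicates 1 to 4 had 8, 13, 5 and 12 counts, or 0.217, 0.349, 0.131 and 0.334 CPM. HFpEF replicate 4 was the highest library and Control replicate 3 the lowest. The groups did not overlap in CPM, but HFpEF replicate 2 and Control replicate 2 had 13 counts each and lay apart only through scaling. Il1b averaged 0.677 ± 0.309 CPM in HFpEF (SD, n = 4) and 0.258 ± 0.103 CPM in Control (SD, n = 4). The log2 fold change was 1.39 ± 0.41 (SE), with a 95% interval of 0.47 to 2.32 and an edgeR adjusted p of 0.116. Counting error alone would give a coefficient of variation of 20.5% at the mean HFpEF count and 32.4% at the mean Control count, and the libraries showed 45.7% in HFpEF and 40.0% in Control. With a mean of 9.50 counts per Control library, Il1b is the least precisely measured of the 5 tested members.

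Ccl2 encodes the chemokine MCP-1, which attracts monocytes through the receptor CCR2. Its counts were 101, 55, 53 and 116 in HFpEF replicates 1 to 4, against 19, 13, 26 and 24 in Control replicates 1 to 4. In normalised CPM these were 2.77, 1.74, 1.60 and 3.17 in HFpEF, against 0.514, 0.349, 0.681 and 0.668 in Control. HFpEF replicates 1 and 4 were the highest, and the lowest HFpEF library (1.60 CPM) lay above the highest Control library (0.681 CPM). The mean was 2.32 ± 0.769 CPM in HFpEF (SD, n = 4) and 0.553 ± 0.156 CPM in Control (SD, n = 4). Ccl2 rose 4.18-fold (95% interval 2.59 to 6.76), which is 2.06 ± 0.31 on the log2 scale (SE; edgeR adjusted p = 0.0210). By p it ranked 64 of 16313 genes, and its log2 fold change exceeded that of 99.3% of them. The call was lost without Control replicate 1, 2 or 3, at adjusted p of 0.0951, 0.0516 and 0.0696, and held without any other single library.

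Selp encodes P-selectin, stored in granules of endothelial cells and platelets and shown on their surface on activation. HFpEF replicates 1 to 4 had 133, 118, 182 and 155 counts, against 47, 52, 38 and 72 in Control replicates 1 to 4. In normalised CPM the values were 3.65, 3.73, 5.51 and 4.23 in HFpEF, against 1.27, 1.40, 0.996 and 2.0 in Control. HFpEF replicate 3 was the highest, Control replicate 4 the highest of its group, and the groups did not overlap. Selp averaged 4.28 ± 0.859 CPM in HFpEF (SD, n = 4) and 1.42 ± 0.426 CPM in Control (SD, n = 4). It rose 3.02-fold (95% interval 2.09 to 4.35), which is 1.59 ± 0.23 on the log2 scale (SE; edgeR adjusted p = 0.0210). By p it stood at rank 57 of 16313 genes. As with Ccl2, the call was lost without Control replicate 1, 2 or 3, at adjusted p of 0.0936, 0.0584 and 0.0677. The log2 fold change then lay between 1.46 and 1.59.

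Icam1 encodes intercellular adhesion molecule 1, the endothelial ligand of leukocyte β2 integrins, and Vcam1 encodes vascular cell adhesion molecule 1, the ligand of integrin α4β1. Icam1 had 605, 659, 614 and 1015 counts in HFpEF replicates 1 to 4, against 535, 516, 545 and 487 in Control replicates 1 to 4. In normalised CPM this was 16.6, 20.8, 18.6 and 27.7 in HFpEF, against 14.5, 13.9, 14.3 and 13.6 in Control. Every HFpEF library lay above every Control library, HFpEF replicate 4 by the widest margin. Icam1 averaged 20.9 ± 4.85 CPM in HFpEF (SD, n = 4) and 14.0 ± 0.416 CPM in Control (SD, n = 4), a coefficient of variation of 23.2% in HFpEF and 2.96% in Control. The Control libraries thus spread less than the 4.38% that counting error alone gives at their mean count. The log2 fold change was 0.58 ± 0.14 (SE), with a 95% interval of 0.25 to 0.90 (edgeR adjusted p = 0.0782). Without HFpEF replicate 4 it was 0.41 (adjusted p = 0.0576). It passed the threshold without HFpEF replicate 1 (log2 fold change 0.67, adjusted p = 0.0444) and with DESeq2 (adjusted p = 0.00730), which called 5.25% of its tested genes higher.

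Vcam1 had 876, 998, 1349 and 1587 counts in HFpEF replicates 1 to 4, against 784, 699, 869 and 1088 in Control replicates 1 to 4. Its normalised CPM were 24.0, 31.5, 40.8 and 43.4 in HFpEF, against 21.2, 18.8, 22.8 and 30.3 in Control. It was the 1 tested member whose groups overlapped, since HFpEF replicate 1 lay below Control replicate 4. Vcam1 averaged 34.9 ± 8.88 CPM in HFpEF (SD, n = 4) and 23.3 ± 4.96 CPM in Control (SD, n = 4). Its log2 fold change was 0.59 ± 0.20 (SE), with a 95% interval of 0.13 to 1.05 (edgeR adjusted p = 0.161), and it passed the threshold in 0 of 17 alternatives. Counting error would give a coefficient of variation of only 2.88% in HFpEF, where the libraries showed 25.4%, and 3.41% in Control, where they showed 21.3%. The spread between libraries was thus several times that of counting.

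Taken one value per library, 4 of the 5 tested members (Il1b, Ccl2, Icam1 and Selp) had all 4 HFpEF libraries above all 4 Control libraries, against 6.74% of all tested genes. Il1b passed the filter on low counts through its HFpEF libraries, so its place among these 4 is not support. For Vcam1, whose groups overlapped, the exact two-sided permutation p on CPM was 0.0571, and the smallest that 70 divisions of 8 libraries allow is 0.0286. Normalised CPM are not corrected for transcript length, so the levels of different members are not ranked here.

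**Figure D2:**
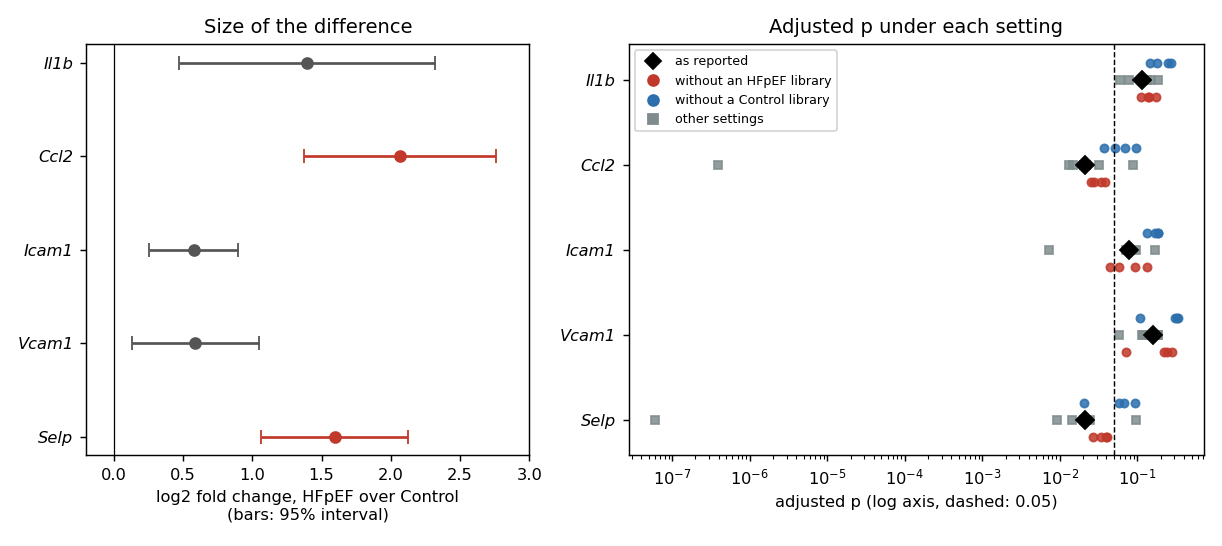
Left, log2 fold change of HFpEF over Control with its 95% interval for the 5 tested members, red where called. Right, edgeR adjusted p as reported (diamond) and adjusted p under each alternative (log axis, dashed line at 0.05), with fits that leave out an HFpEF library in red, a Control library in blue and other settings in grey. Grey points for DESeq2 and limma-voom give the adjusted p of those tests. Ccl2 and Selp cross the line without Control replicate 1, 2 or 3 and in 1 grey setting, while Vcam1 and Il1b never lie below 0.05.

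**Figure D3:**
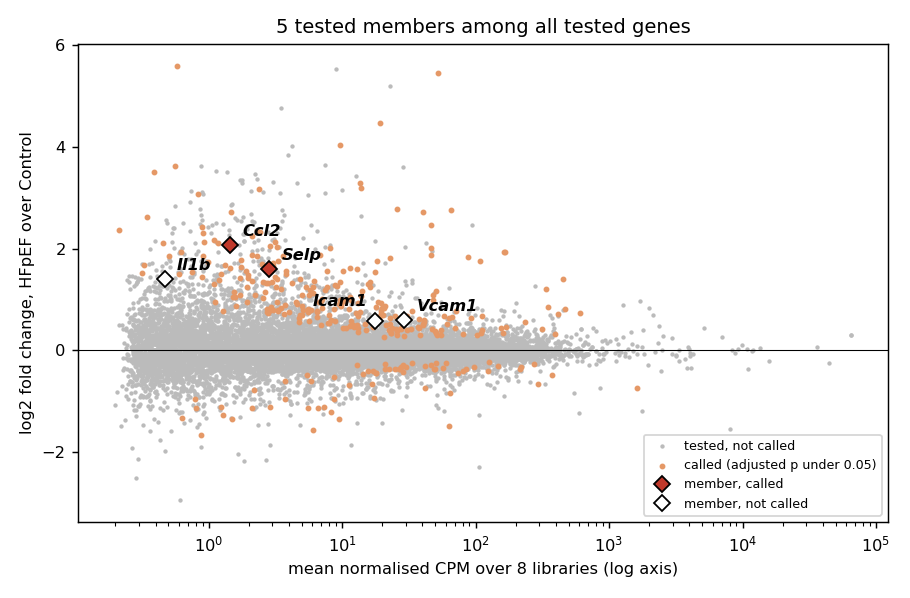
Log2 fold change of HFpEF over Control against mean normalised CPM (log axis) for the 16313 tested genes, grey where not called and orange where called. The 5 tested members are diamonds, filled red where called. All 5 lie above 0, with Ccl2 and Selp at 2.06 and 1.59 and Icam1 and Vcam1 close together at 0.58 and 0.59.

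The folds of the members were set against each other within libraries. A ratio of the counts of 2 genes in 1 library does not depend on how libraries are scaled, and transcript length cancels between groups. This comparison was chosen after the values were seen. It uses the same counts as the folds above, so it largely restates the gaps between those folds and is not independent support for them. There were 16.7, 8.35, 8.63 and 11.4 Ccl2 counts per 100 Icam1 counts in HFpEF replicates 1 to 4, against 3.55, 2.52, 4.77 and 4.93 in Control replicates 1 to 4. Selp stood at 15.2, 11.8, 13.5 and 9.77 counts per 100 Vcam1 counts in HFpEF, against 5.99, 7.44, 4.37 and 6.62 in Control. Neither pair overlapped between groups. The ratio was 2.84 times higher in HFpEF for Ccl2 per Icam1, 2.80 times for Ccl2 per Vcam1, 2.1 times for Selp per Icam1 and 2.07 times for Selp per Vcam1. For each of these 4 ratios the exact permutation test, two-sided, gave p = 0.0286, or 0.0714 after adjustment over the 10 pairs, so none passed the threshold. That unadjusted p is the smallest that 70 divisions allow. With only 4 of the 10 pairs at this smallest p, the adjusted p could not fall under 0.05, whatever the size of the differences. The groups overlapped in every other pair of the 10, and the share of other gene pairs without overlap was not computed. Vcam1 per Icam1 had a log2 ratio of 0.73 ± 0.275 in HFpEF (SD, n = 4) and 0.71 ± 0.318 in Control (SD, n = 4), a difference of 0.02 (exact permutation p = 0.886). Ccl2 per Selp had a log2 ratio of -0.92 ± 0.658 in HFpEF (SD, n = 4) and -1.36 ± 0.612 in Control (SD, n = 4), with an exact permutation p of 0.343. Neither p shows that the members of these pairs changed alike.

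**Figure D4:**
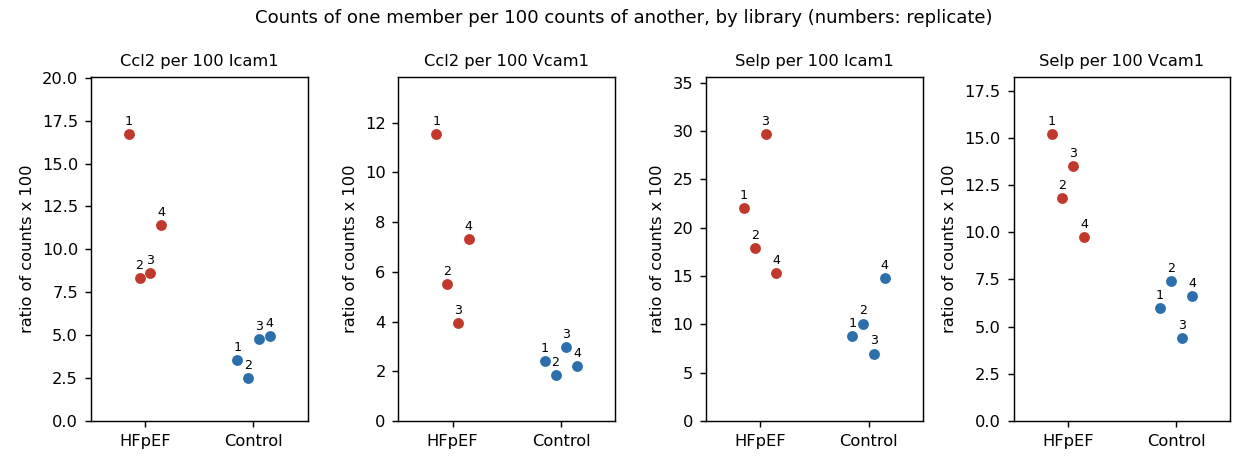
Counts of Ccl2 or Selp per 100 counts of Icam1 or Vcam1 in each library (linear axis from 0), HFpEF red on the left and Control blue on the right, numbered by replicate. The groups do not overlap in any of the 4 panels, although for Selp per 100 Icam1 counts HFpEF replicate 4 (15.3) and Control replicate 4 (14.8) lie close. These are the only 4 of the 10 pairs of tested members without overlap.

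The members did not share 1 order of libraries within a group. HFpEF replicate 4 was the highest of its group for Il1b, Ccl2, Icam1 and Vcam1, HFpEF replicate 3 for Selp and HFpEF replicate 2 for Il6. In Control, replicate 4 was the highest for Vcam1 and Selp, replicate 3 for Ccl2, replicate 2 for Il1b and replicate 1 for Icam1. Over the 10 pairs of tested members, deviations from the group mean of log2 CPM correlated with Pearson's r between -0.19 and 0.63 over 8 libraries. The highest was Vcam1 with Selp (r = 0.63, exact permutation p = 0.116; Spearman's rho = 0.52, exact permutation p = 0.240; adjusted p of 0.731 and 0.895 over the 10 pairs). Of the 10 pairs 0 reached an adjusted or an unadjusted p under 0.05 by either coefficient. Without the 2 libraries farthest from the median of Vcam1, HFpEF replicate 1 and Control replicate 4, r was 0.41.

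Outside the members, the gene whose log2 CPM followed each tested member most closely over the 8 libraries was sought among 9711 genes with a mean of at least 8 CPM. The highest r was 0.987, between Selp and ENSRNOG00000047276. That gene had 150 ± 1.71 CPM in HFpEF (SD, n = 4) and 141 ± 3.48 CPM in Control (SD, n = 4). Its log2 fold change was 0.10 (edgeR adjusted p = 0.286), against 1.59 for Selp. For Icam1 it was ENSRNOG00000016378 (r = 0.977), with 9.02 ± 0.911 CPM in HFpEF (SD, n = 4) and 7.05 ± 0.235 CPM in Control (SD, n = 4), at an edgeR adjusted p of 0.0794. For Ccl2 it was ENSRNOG00000010813 (r = 0.969), which was called at 0.45 on the log2 scale (edgeR adjusted p = 0.0371). For Vcam1 it was ENSRNOG00000052499 (r = 0.969; log2 fold change 0.29, edgeR adjusted p = 0.159), and for Il1b ENSRNOG00000000655 (r = 0.966; log2 fold change 1.11, edgeR adjusted p = 0.0757). Each r is the highest of 9711 and is given as a description. Group means were not removed, so a member's own difference between groups favours genes that differ too. The folds and adjusted p of these genes are therefore not independent support. The table pairs no identifier with a gene name, so receptors, integrins, other chemokines, the NF-κB chain and markers of endothelium, leukocytes, platelets or node cells were not analysed here. The part of cell mix in these differences, and the labelled tissue, were therefore not tested.

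Promoter sequence, which does not come from these counts, was looked at for the adhesion pair with nearly equal folds. That pair was picked by its folds in these data, and NF-κB is a known inducer of most of these genes. The motifs are therefore not independent of the choice of genes. RefSeq (GRCr8 build, not the rn6 build of the counts) gave a promoter for Il6, Il1b, Icam1 and Vcam1; Ccl2 and Selp had none in the table used. Both strands of the 250 bases before the start were searched for the NF-κB consensus and for the shorter GGNNNTTCC, which was chosen after the sequences were seen and can lie inside the consensus. Capitals mark each match of either. The windows are Icam1, chr8:27829595-27829844 on the plus strand, and Vcam1, chr2:206742784-206743033 on the minus strand, each written along its gene.
Icam1: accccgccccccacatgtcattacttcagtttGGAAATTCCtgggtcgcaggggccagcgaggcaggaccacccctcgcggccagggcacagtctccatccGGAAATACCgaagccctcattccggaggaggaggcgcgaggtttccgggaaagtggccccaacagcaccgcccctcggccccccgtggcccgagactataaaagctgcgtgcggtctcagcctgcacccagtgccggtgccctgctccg
Vcam1: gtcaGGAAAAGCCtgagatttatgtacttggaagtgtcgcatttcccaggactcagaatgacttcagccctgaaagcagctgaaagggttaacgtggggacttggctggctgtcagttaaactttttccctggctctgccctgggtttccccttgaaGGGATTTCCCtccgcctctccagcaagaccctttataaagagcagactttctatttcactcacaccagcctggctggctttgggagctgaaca
Vcam1 holds the consensus once, 93 to 84 bases before the start (GGGATTTCCC), and Il6 holds it once, 68 to 59 bases before the start (GGGATTTTCC). Icam1 holds only the shorter motif, 218 to 210 bases (GGAAATTCC) and, on the other strand, 149 to 141 bases before the start. Vcam1 has a further match of the shorter motif at 246 to 238 bases, on the other strand. Il1b matched neither motif. Of 33465 promoter windows of this length, 6.33% held the consensus and 15.4% the shorter motif. Whether the members hold either more often than other genes was not tested, and a match says nothing here about binding.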

How the data were processed

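RNA was sequenced from 4 HFpEF and 4 Control libraries of sinoatrial node after depletion of ribosomal RNA, per the labels' protocols. The authors deposited 1 table of RSEM expected counts per Ensembl gene, unscaled. Bowtie2 2.1.0, RSEM 1.2.15 and build rn6 are named in the submitters' processing notes. Which annotation was used, how reads were filtered and whether strand was counted is not given in the sources used here. All 6 members had whole counts (within 0.005) in every library. In RefSeq's GRCr8 annotation 0 other genes overlap them and they lie on 6 chromosomes. Member symbols came with the list of identifiers; the reference tables pair 0 identifiers with names, so the 69 related genes listed by symbol were not used.

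Expected counts were rounded. Genes were kept by filterByExpr (16313 genes, 99.95% of counts), scaled by TMM and tested with edgeR 4.0.16 in R 4.3.3 (quasi-likelihood, two-sided, adjusted over all tested genes, threshold 0.05). Normalised CPM use the scaled totals. Intervals of 95% for log2 fold changes come from standard errors derived from the F statistic and hold for single genes, with no adjustment for the number tested. A member failing the filter, or under a mean of 10 counts, counts as too low to judge. Single values were compared by exact permutation over 70 divisions of the libraries, and within-group correlations by exact permutation over 576 reorderings. Fits were tested on simulated counts.

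Totals ran from 31774820 to 38889395 counts per library. Within each group, counts varied beyond sampling (chi-square over degrees of freedom, 19.4 to 87.6), so all 8 were used. The members, the lists and the tests were chosen with earlier results of these data known. All 6 members are named. For each of the 5 tested members, the gene most like it was named by its identifier, by the highest correlation. A planned limit of 2 identifiers in each direction was not kept, as all 5 had log2 fold changes above 0. The alternatives tried were upper quartile and RLE scaling, DESeq2 1.42.0, limma 3.58.1 (voom, without and with sample weights), no filter, a stricter filter (1 CPM in 4 libraries), robust = TRUE, a threshold of 0.1, the replicate number as a block, log2(CPM + 1) for correlations, and leaving out each library.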

Additional observations from a re-analysis of the deposited data

Results flagged for a closer look

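Among 12 sets of 4 values (6 members in 2 groups), 2 held a library standing apart from the rest of its group by Dixon's test, both for Il6. The usual rate of about 1 set in 20 by chance assumes continuous values and does not hold for counts this low. Control counts of 0, 0, 1 and 0 give the highest possible statistic by construction, so these flags do not show unusual libraries. HFpEF replicate 2 stood at 0.348 CPM of Il6, or 11 counts, where the other HFpEF libraries held 1 or 2. Control replicate 3 stood at 0.0262 CPM, which is 1 count where the other Control libraries held 0, and lies under the limit that a count of 0 allows.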

How the results depend on the processing

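The 5 tested members kept their direction in every alternative that could be run. Ccl2 and Selp were each called in 13 of 17 alternatives, including DESeq2, limma-voom, both other scalings and both filters. The count of 2 members called higher was 0 to 3 with any 1 library removed. It was 3 without HFpEF replicate 1, and 0 without Control replicate 1, 2 or 3. Over all genes, the fits without Control replicate 1, 2 or 3 called between 21 and 85 higher. Fits without an HFpEF library called between 139 and 234 higher, and the fit without Control replicate 4 called 118. Why these fits differ was not tested. Leaving out 1 library gave log2 fold changes of 1.88 to 2.21 for Ccl2 and 1.45 to 1.81 for Selp. For Icam1 they ran from 0.41 to 0.67, called only without HFpEF replicate 1, and DESeq2 called it at 0.58; why was not tested. Il1b and Vcam1 were called in 0 of 16 and 0 of 17 alternatives, with lowest adjusted p of 0.0593 and 0.0586. The stricter filter drops Il1b. Il6 was refitted only with no filter and 1 library left out, with a log2 fold change of 2.02 to 5.03 and adjusted p of at least 0.173. Its counts are too low for its direction to be judged.

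With the replicate number as a block (replicate block) 0 members were called, with log2 fold changes of 2.04 for Ccl2 and 1.61 for Selp and adjusted p of 0.0888 and 0.0966; over all genes it called 6. Same-numbered libraries deviated together with r of -0.022, -0.056, 0.068 and -0.162, which does not tie libraries by number.

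Within-group correlations changed sign without the 2 farthest libraries for Il1b with Icam1 (0.41, then -0.083), Ccl2 with Selp (-0.19, then 0.169) and Icam1 with Vcam1 (0.52, then -0.64). With log2(CPM + 1), the largest shifts in r were in pairs with the low-count Il1b. They were from 0.23 to 0.60 with Ccl2, 0.41 to 0.59 with Icam1 and 0.50 to 0.28 with Selp. No pair changed sign on that scale, and 0 reached an adjusted p under 0.05 by Pearson's r. The log2 ratio of Vcam1 per Icam1 lay between -0.11 and 0.17 with 1 library left out.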
